A study of Mus musculus with 4 samples.

Results

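The genes described here are 32 genes of glycolysis and the pentose phosphate pathway, from glucose transporters at the cell surface to lactate export. They were chosen by name and not by their values, though with earlier results of these data known. Each was represented by its probe set with a single gene symbol and the highest mean log2(signal + 16) over all 4 arrays. Such a probe set was found for 29 of the 32 genes. Gpi1, Eno1 and G6pdx had none in the annotation used and were not analysed here. Of the 29 genes, 27 entered a fit across 13139 genes. Eno2 was too dim for that fit, and Gapdh is carried by control probe sets, which were kept out of it.

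Glycolysis splits glucose into pyruvate in the cytosol and yields ATP without oxygen, and lactate dehydrogenase then returns the reduced cofactor to use. The oxidative arm of the pentose phosphate pathway instead draws off glucose 6-phosphate to make NADPH and ribose 5-phosphate, and its non-oxidative arm returns carbon to glycolysis. Neutrophils hold few mitochondria and take most of their ATP from glycolysis, and their NADPH oxidase uses the NADPH of the pentose phosphate pathway for the respiratory burst.

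RNA was measured in 2 neutrophil samples and 2 samples of myeloid-derived suppressor cells of the granulocytic kind (G-MDSC), on 1 Affymetrix mouse expression array each. All came from female C57BL/6 mice, for which the labels name no transgene or deletion. G-MDSC, labelled CD11b+Ly6G+Ly6Clow, are immature granulocytes that build up in hosts with tumours and hold back T cell responses. They were taken from the spleen 3.5 weeks after EL4 lymphoma cells were injected under the skin, and were selected for Ly6G on microbeads. The neutrophils came from peritoneal lavage of mice given casein, a milk protein that provokes inflammation, as 2 doses of 1.5 ml at 12% into the peritoneum, 16 h apart. They were harvested 3 h after the second dose, and F4/80-positive cells were removed before the same Ly6G selection. Cell kind therefore cannot be told apart from tissue, tumour, casein or sorting in any difference given here. The labels do not say that the samples of a group were separate mice or pools of mice. The p-values therefore rest only on how far these samples varied, over the genes fitted, which may be technical variation.

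Neutrophils replicate 2 stood apart at low signals, with a median signal of 177.9 against 75.8 to 83.3 in the other 3 arrays. Over all kept probe sets the G-MDSC replicates correlated at r = 0.953 and the neutrophil replicates at r = 0.875, with 0.766 to 0.885 between groups, as a description across probe sets. Marker counts are to be read against all genes, of which limma called 8.3% higher and 8.05% lower, with 29.6% at an unadjusted p under 0.05. Granulocyte markers had signal in all 4 arrays and none was dim, with 7 of 15 higher and none lower in G-MDSC. At an unadjusted p under 0.05 in limma, 9 were higher and 0 lower. The 7 were Mpo, Camp, Elane, Ltf, Ngp, Cxcr4 and Cxcr2. S100a8 (-0.31, log2, G-MDSC minus neutrophils), S100a9 (-0.45), Itgam (-0.08) and Lcn2 (-0.12) lay below 0 and were not called. Summed signals were 371536 and 446734 in the G-MDSC arrays and 266901 and 311170 in the neutrophil arrays. Ly6g, the gene of the selection marker, was not on a single-symbol probe set. Macrophage markers also had signal, with 10 of 17 lower and 1 higher in G-MDSC, summed signals of 21756 and 20525 in G-MDSC, compared with 46279 and 69525 in neutrophils, and none dim in either group. Of the cell cycle genes, 9 of 19 tested were higher in G-MDSC, with summed signals over 20 measured genes of 37870 and 18675 against 13930 and 13799. Mast cell markers summed to 20034 and 22584 in the G-MDSC arrays and 41147 and 30863 in the neutrophil arrays, with 1 of 10 higher and 5 lower. Mcpt4, Cma1 and Tpsb2 were dim in G-MDSC and Mcpt8 in neutrophils. Most of each sum was Hdc, at 15256.1 and 18051.6 against 24349.8 and 24016.3, which was not called. Lymphocyte markers summed to 21337 and 14953 against 6143 and 8480, with 2 of 9 tested higher, the plasma cell genes Jchain and Igha. Jchain had 8912 and 4231.8 against 310 and 215.4, and Igha 5801.5 and 3869.2 against 247 and 320.2. The other tested genes ran from -1.34 (Cd8a) to 1.75 (Cd3d) and were not called, among them Ms4a1 (0.10) and Cd79a (0.40). Of the erythroid markers limma called 0 of 9 tested, with 0 at an unadjusted p under 0.05. Hba-a1, Alas2, Epb42, Klf1, Rhag and Ermap were dim in neutrophils and Epb42 in G-MDSC. Dim is judged against each array's own 40th percentile, which was 132.7 in neutrophils replicate 2 and 45.7 to 52.6 in the other arrays. A signal that counts as dim in that array may therefore not do so in the others. The part of these markers in the results was not tested, and in such bulk samples fewer cells of a type and less RNA per cell cannot be told apart.

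Among the 27 tested genes, 2 rose in G-MDSC relative to neutrophils and 3 fell at an adjusted p under 0.05 in limma's fit with Benjamini-Hochberg adjustment over all 13139 genes. The genes that rose were Pfkfb4, which sets the level of an activator of phosphofructokinase, and the glucose transporter Slc2a3. The genes that fell were the monocarboxylate transporter Slc16a1, the glucose transporter Slc2a6 and the phosphofructokinase subunit Pfkp. All genes tested gave 8.3% higher and 8.05% lower, so the 7.41% and 11.1% of the listed genes lay near the background. The median difference of the listed genes was -0.24 on the log2 scale, beside -0.18 for all genes, and their median absolute difference was 0.67 beside 0.66. Both G-MDSC arrays lay above both neutrophil arrays for 8 of the 27 genes, or 29.6%, against 27.3% of all genes. Both lay below for 13, or 48.1%, against 32.2% of all genes, and for 6 genes the arrays of the groups overlapped.

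With 1 array left out, a group holds a single array and the spread comes from the other group's pair, so the lone array is assumed to vary as that pair does. Those p-values are therefore a weaker test, and the G-MDSC pair lay closer together than the neutrophil pair over all genes (median gap 0.31 against 0.58). Without neutrophils replicate 1, 7 listed genes rose and 5 fell, while 18.4% of all genes were called higher and 26.4% lower. Without neutrophils replicate 2, 3 rose and 8 fell, with 13% and 11.1% of all genes. Without G-MDSC replicate 1, 2 rose and 2 fell, with 3.27% and 4.37% of all genes, and without replicate 2, 2 rose and 1 fell, with 3.89% and 4.27%. The count of listed genes that fell was 0 after median scaling, with limma's eBayes without trend and without moderated variances, where 7, 6 and 6 listed genes of either direction had an unadjusted p under 0.05. Of the calls over all genes, 50.8% were higher in G-MDSC with the signals as deposited and 70.0% after scaling the arrays to their medians, which moved the median of all genes from -0.18 to 0.42, against 0.03 after quantile normalization. Relative to the median of all genes, the median of the listed genes was -0.06 as deposited, -0.31 after quantile normalization and -0.04 after median scaling. At an unadjusted p under 0.05, 11 of the 27 genes passed, beside 29.6% of all genes.

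**Figure D1:**
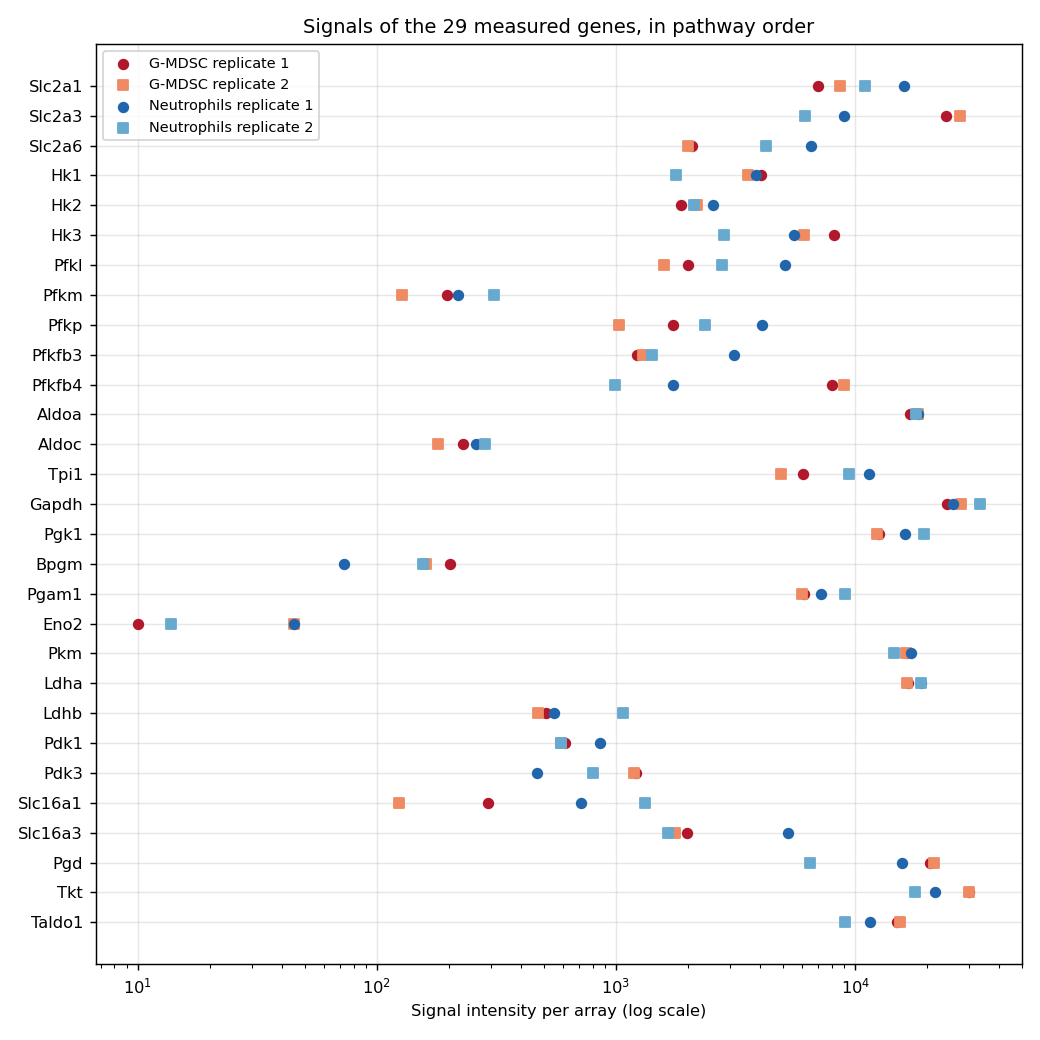
Signal intensity per array (log axis) of the 29 measured genes in pathway order, with circles and squares for replicates 1 and 2 of G-MDSC (red and orange) and of neutrophils (blue and light blue). The groups lie clearly apart for Slc2a3, Pfkfb4 and Slc16a1, overlap for Hk2, Aldoa and Pkm, and all 4 arrays of Eno2 lie at or below 45 signal units.

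The first step is glucose entry. Slc2a3 encodes GLUT3, a transporter of high affinity for glucose. Its signal (probe set 1437052_s_at) was 24065 and 27395.4 in the G-MDSC arrays and 8948.5 and 6182.3 in the neutrophil arrays. Both G-MDSC arrays were far above both neutrophil arrays, and the replicates of each group lay close together by comparison. The difference, G-MDSC minus neutrophils, was 1.79 ± 0.32 (log2, limma's moderated SE, n = 2 arrays per group). That is a 3.45-fold higher signal with a limma adjusted p of 0.0034. Here and below, the SE draws on the variance of all genes fitted as well as on the gene's own replicates. All 4 of its probe sets were higher in G-MDSC, by 1.41 to 2.42, and 2 of the 4 passed when all kept probe sets were tested with limma. With 1 array left out the difference stayed between 1.52 and 2.05 and kept its call.

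Slc2a6 encodes GLUT6, a transporter found on lysosomal membranes in macrophages. The signal of this gene (probe set 1434015_at, its single one) was 2071.1 and 2007.3 in G-MDSC, compared with 6511.6 and 4250.2 in neutrophils. The G-MDSC arrays nearly coincided and lay below both neutrophil arrays. Slc2a6 fell by 1.36 ± 0.32 on the log2 scale (limma adjusted p = 0.0139), a 2.57-fold lower signal. Without G-MDSC replicate 1 or 2 the limma adjusted p was 0.0698 and 0.0855, with differences of -1.38 and -1.34, and after median scaling the difference was -0.73 (limma adjusted p = 0.684). Macrophage markers were lower in the same arrays, with the summed signals given above, and their part was not tested.

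Slc2a1 encodes GLUT1, the widely expressed basal transporter. It had signals of 7017.5 and 8600.5 in the G-MDSC arrays and 15976.3 and 10992.8 in the neutrophil arrays. The groups did not overlap, but the difference of -0.77 ± 0.32 did not pass (limma adjusted p = 0.132). It was -1.04 (limma adjusted p = 0.00475) without neutrophils replicate 2, -0.50 (0.176) without replicate 1 and -0.13 after median scaling. Its 3 probe sets gave -0.97 to -0.61.

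Within each array, the log2 signal of Slc2a1 minus that of Slc2a3 was -1.78 and -1.67 in G-MDSC, with 0.84 and 0.83 in neutrophils, a difference of -2.55 between the groups. For Slc2a6 minus Slc2a3 the values were -3.53 and -3.76 against -0.46 and -0.54, a difference of -3.15. Such a ratio hardly moves when an array is scaled by a single factor, and it shows unequal change, not which transcript is the more abundant. The balance of the transporters thus lay on the side of Slc2a3 in both G-MDSC arrays relative to both neutrophil arrays. Slc2a1 minus Slc2a6 differed by 0.59. With 2 arrays per group the smallest p an exact permutation test allows is 0.333, which each of these 3 pairs had (0.556 after adjustment over the 15 isoform pairs compared).

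Hexokinases trap glucose in the cell as glucose 6-phosphate, and none of the 3 passed the test. Hk3, the isoform typical of myeloid cells, had signals of 8157.8 and 6085.5 in the G-MDSC arrays and 5566.1 and 2819.5 in the neutrophil arrays. The G-MDSC arrays were the higher, though the lower of them lay close to neutrophils replicate 1. The difference was 0.83 ± 0.37 (limma adjusted p = 0.158). It was 1.32 (limma adjusted p = 1.615e-04) without neutrophils replicate 1 and 0.34 (limma adjusted p = 0.497) without replicate 2.

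Hk1, the housekeeping isoform bound to mitochondria, had signals of 4039.9 and 3551.6 in G-MDSC, compared with 3836.1 and 1789.8 in neutrophils. Neutrophils replicate 1 lay between the G-MDSC arrays and replicate 2 well below them. The difference of 0.53 ± 0.37 (limma adjusted p = 0.378) was 1.07 (limma adjusted p = 0.00249) without neutrophils replicate 1 and -0.018 without replicate 2, so it rested on a single neutrophil array. Hk2, the inducible isoform, had signals of 1872.7 and 2187.8 against 2539.9 and 2120.2, and the groups overlapped (-0.20 ± 0.30, limma adjusted p = 0.698). Its sign turned to 0.44 after median scaling. Within arrays, Hk1 minus Hk2 was higher by 0.72 in G-MDSC, Hk2 minus Hk3 lower by 1.02 and Hk1 minus Hk3 lower by 0.30, each with non-overlapping arrays and an exact permutation p of 0.333.

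Phosphofructokinase 1 commits fructose 6-phosphate to glycolysis and is built from subunits named for liver (Pfkl), muscle (Pfkm) and platelets (Pfkp). All 3 had lower signals in both G-MDSC arrays, and Pfkp passed the test. Pfkp (probe set 1416069_at) had signals of 1727.4 and 1025.8 in the G-MDSC arrays and 4082.3 and 2359.1 in the neutrophil arrays. The groups were apart, with replicates of each group a good way from one another. Pfkp fell by 1.21 ± 0.37 on the log2 scale, a 2.31-fold lower signal with a limma adjusted p of 0.0478, just inside the threshold. Its 3 probe sets gave -1.66 to -1.17, and 0 of the 3 passed in limma's fit over all kept probe sets, the chosen one at an adjusted p of 0.101. It was not called in 8 of 17 alternatives, among them the one without G-MDSC replicate 2 (-0.84, limma adjusted p = 0.430) and median scaling (-0.58, limma adjusted p = 0.749).

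Pfkl had signals of 2007.7 and 1587.9 in the G-MDSC arrays and 5095.9 and 2776.4 in the neutrophil arrays, again with no overlap. Its difference of -1.07 ± 0.35 lay just outside the threshold (limma adjusted p = 0.0617). It was -1.50 (limma adjusted p = 3.149e-05) without neutrophils replicate 2, -0.63 (0.0857) without replicate 1 and -0.44 (0.820) after median scaling. A second Pfkl probe set gave -0.95, while another had signals of 572.1 and 286.1 against 403.2 and 237.3 and a difference of 0.37. Pfkm had signals of 195.7 and 127.3 against 219 and 309.4 (-0.67 ± 0.45, limma adjusted p = 0.350). All 3 chosen probe sets stayed below 0 under the quantile and median scalings. The ratios between the subunits did not separate the groups. Pfkp minus Pfkl differed by -0.14, Pfkl minus Pfkm by -0.40 and Pfkp minus Pfkm by -0.54, each with overlapping arrays (exact permutation p of 1, 1 and 0.667).

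Phosphofructokinase 1 is switched on by fructose 2,6-bisphosphate, which the PFKFB enzymes both make and remove. PFKFB3 has by far the stronger kinase side, while PFKFB4 has a more even balance of kinase and phosphatase. The ratio of their signals differed more between the groups than that of any other isoform pair compared. Pfkfb4 (probe set 1456888_at, its single one) had signals of 7998.2 and 9017.9 in G-MDSC, compared with 1735.8 and 991.6 in neutrophils. Every G-MDSC value was several times every neutrophil value. Pfkfb4 rose by 2.68 ± 0.34 on the log2 scale, a 6.40-fold higher signal with a limma adjusted p of 4.979e-04, the greatest difference among the listed genes. It was called in 16 of 17 alternatives, the exception being the fit without moderated variances, and lay between 2.28 and 3.08 with any 1 array left out.

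Pfkfb3 had signals of 1222.9 and 1297.2 in the G-MDSC arrays and 3108.6 and 1410 in the neutrophil arrays. Both neutrophil arrays were above the G-MDSC arrays, replicate 2 only slightly. The difference of -0.73 ± 0.38 did not pass (limma adjusted p = 0.234), and it was -1.29 (limma adjusted p = 6.033e-04) without neutrophils replicate 2, -0.16 (0.696) without replicate 1 and -0.098 after median scaling. Pfkfb3 minus Pfkfb4 within each array was -2.69 and -2.78 in G-MDSC, compared with 0.83 and 0.50 in neutrophils. The difference between the groups was -3.41, -3.51 after quantile normalization and -3.30 with the median of each gene's probe sets, with the exact permutation p at its floor of 0.333.

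The start regions of this pair are printed because its ratio differed most, and those of the lactate transporters Slc16a1 and Slc16a3 because the first is the called gene with the lowest difference and both belong to one step. Each is the 250 bases before the start, on the gene's strand, from RefSeq on GRCm38.p6. Capitals mark ACGTG on either strand, a form of the core of the hypoxia response element. The other form, GCGTG, was not searched. Pfkfb4 lies at chr9:108991652-108991901 on the plus strand, and Pfkfb3 has 2 start regions, at chr2:11553930-11554179 and chr2:11502091-11502340 on the minus strand. Slc16a1 lies at chr3:104638414-104638663 and Slc16a3 at chr11:120948817-120949066, both on the plus strand.
Pfkfb4: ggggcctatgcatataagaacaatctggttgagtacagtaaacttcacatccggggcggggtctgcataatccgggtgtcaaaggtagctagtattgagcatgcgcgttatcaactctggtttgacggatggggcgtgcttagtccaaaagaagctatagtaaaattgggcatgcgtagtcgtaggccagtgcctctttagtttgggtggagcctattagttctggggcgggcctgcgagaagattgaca
Pfkfb3 first start: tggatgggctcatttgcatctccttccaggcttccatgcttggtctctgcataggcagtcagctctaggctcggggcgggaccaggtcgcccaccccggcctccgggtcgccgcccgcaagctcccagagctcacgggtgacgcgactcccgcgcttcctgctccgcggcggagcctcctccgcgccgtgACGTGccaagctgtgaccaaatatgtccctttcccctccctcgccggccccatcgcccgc
Pfkfb3 second start: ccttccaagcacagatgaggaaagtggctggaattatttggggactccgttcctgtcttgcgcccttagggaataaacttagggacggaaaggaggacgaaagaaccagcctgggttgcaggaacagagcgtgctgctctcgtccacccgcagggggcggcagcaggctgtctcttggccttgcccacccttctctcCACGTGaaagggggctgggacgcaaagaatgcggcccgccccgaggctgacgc
Slc16a1: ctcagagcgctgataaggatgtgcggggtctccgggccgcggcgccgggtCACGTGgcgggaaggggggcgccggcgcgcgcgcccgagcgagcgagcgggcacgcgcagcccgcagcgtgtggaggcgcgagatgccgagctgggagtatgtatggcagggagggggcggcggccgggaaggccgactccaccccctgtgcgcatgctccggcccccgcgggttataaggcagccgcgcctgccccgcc
Slc16a3: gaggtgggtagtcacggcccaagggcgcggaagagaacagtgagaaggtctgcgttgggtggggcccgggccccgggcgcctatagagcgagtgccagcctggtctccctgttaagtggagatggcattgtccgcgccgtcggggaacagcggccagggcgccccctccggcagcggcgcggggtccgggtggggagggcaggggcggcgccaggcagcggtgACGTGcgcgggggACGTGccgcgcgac

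The window of Pfkfb4 holds no ACGTG, though GCGTG, which was neither searched nor marked, can be read in it. In Pfkfb3 the motif begins 60 bases before the first start, and before the second start it is part of CACGTG, an E-box that reads as ACGTG on both strands, 53 bases upstream. Slc16a1 has such an E-box 200 bases before its start, and Slc16a3 has ACGTG at 27 and 14 bases. RefSeq windows were matched for 31 of the 32 genes, with Slc2a3 the one not in the table, and several genes have more than one window, some of them overlapping. ACGTG was in 16 of the 45 windows, or 35.6%, and in 16.6% of all 32851 windows. Genes that had it were Slc2a1, Hk2, Hk3, Pfkm, Pfkfb3, Aldoa, Pgk1, Pgam1, Pkm, Ldha, Pdk3, Slc16a1 and Slc16a3. Of these 13 genes Slc16a1 alone was called, beside 8.3% of all genes called higher and 8.05% lower. Slc2a3 was called too but had no window to search. CACGTG, which contains ACGTG, was in 8.89% of the windows against 6.02% of all, and TGACNNNGC, the core of the antioxidant response element, in 8.89% against 10.2%, searched on both strands. A match describes letters in a window, and binding was not measured here.

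**Figure D2:**
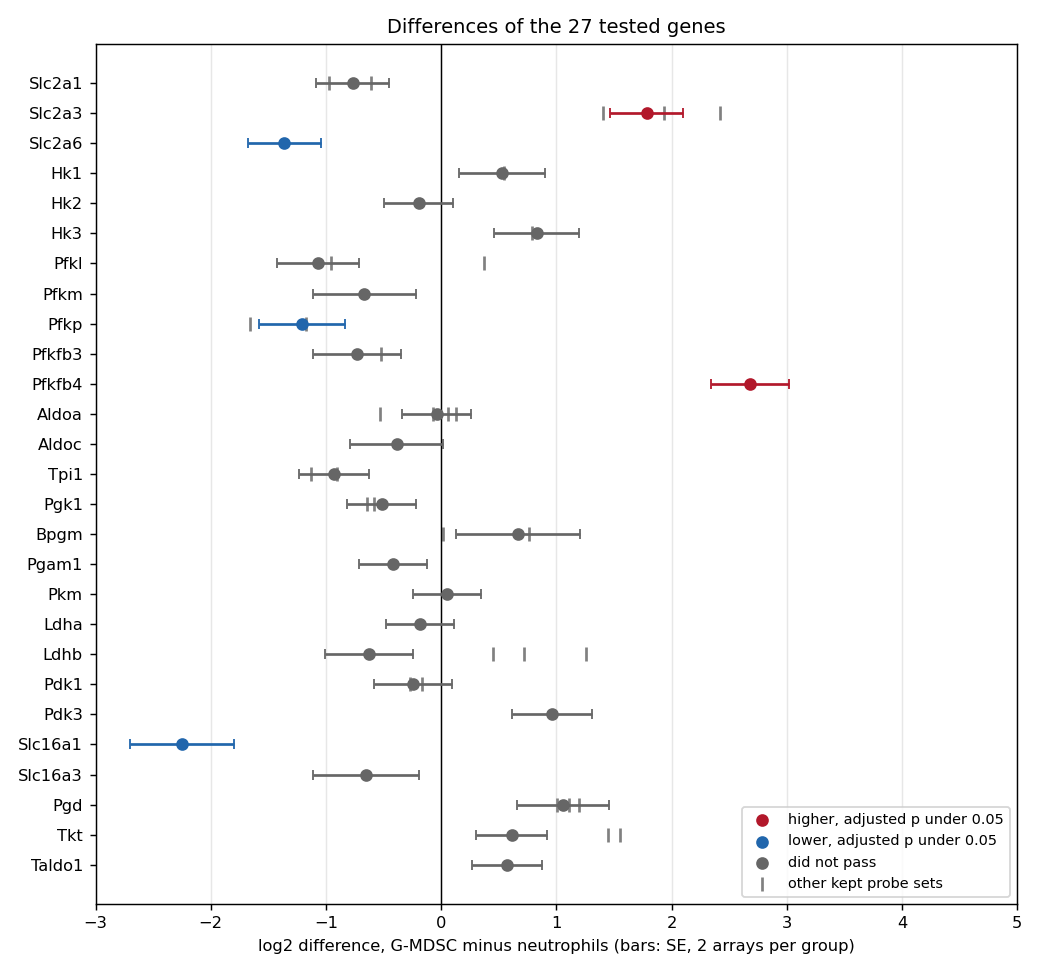
Log2 difference, G-MDSC minus neutrophils, of the 27 tested genes. Bars show limma's moderated SE (2 arrays per group) and grey ticks other kept probe sets of the gene. Pfkfb4 at 2.68 and Slc2a3 at 1.79 passed upward (red), Slc16a1 at -2.25, Slc2a6 at -1.36 and Pfkp at -1.21 downward (blue), and the other probe sets of Ldhb lie on the opposite side of 0.

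From aldolase to enolase none of the tested genes passed. Aldoa, the main aldolase, which splits fructose 1,6-bisphosphate, had signals of 16985.7 and 18385 in the G-MDSC arrays and 18362 and 17952.6 in the neutrophil arrays. The groups overlapped and the difference was -0.04 ± 0.30 (limma adjusted p = 0.942). Its 5 probe sets gave -0.53 to 0.13, so its sign depended on the probe set, and it was also above 0 after quantile (0.11) and median (0.60) scaling. Aldoc, an isoform best known from brain, had signals of 229.7 and 180.5 against 258.7 and 284.6, with the neutrophil arrays slightly higher (-0.39 ± 0.40, limma adjusted p = 0.557, and 0.21 after median scaling).

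Tpi1, triose phosphate isomerase, which interconverts the products of aldolase, had signals of 6077.5 and 4878.6 in G-MDSC, compared with 11426.7 and 9439.2 in neutrophils. Both neutrophil arrays were clearly the higher. The difference of -0.93 ± 0.30 lay just outside the threshold (limma adjusted p = 0.0588). The limma adjusted p was 0.0282 without neutrophils replicate 1 (-0.79) and 0.00383 without replicate 2 (-1.07), but 0.211 and 0.490 without G-MDSC replicates 1 and 2 (-1.09 and -0.77). After median scaling the difference was -0.29 (limma adjusted p = 0.865). The probe sets of Tpi1 gave -1.13 to -0.90.

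Gapdh, which makes the first reduced cofactor of the pathway, had signals on its 3' control probe set of 24268.7 and 27608.8 in the G-MDSC arrays and 25721.7 and 33348.7 in the neutrophil arrays. The groups overlapped, and in an added fit that let this probe set in, the difference was -0.18 ± 0.31 (limma adjusted p = 0.735). The 5' and middle probe sets gave -0.12 and -0.06. All 3 were above 0 under quantile (0.03, 0.15 and 0.19) and median scaling (0.46, 0.52 and 0.58).

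Pgk1, phosphoglycerate kinase, which makes the first ATP, had signals of 12517.1 and 12279.8 in the G-MDSC arrays and 16183.1 and 19441.6 in the neutrophil arrays. The G-MDSC arrays nearly coincided below both neutrophil arrays, with a difference of -0.52 ± 0.30 (limma adjusted p = 0.279). Pgam1, phosphoglycerate mutase, gave a like pattern with 6084.2 and 5983.4 against 7228 and 9025.1 (-0.42 ± 0.30, limma adjusted p = 0.379). Both turned sign after median scaling, to 0.12 and 0.22.

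Bpgm makes 2,3-bisphosphoglycerate, known for its role in red cells. Its signals were 201.9 and 160.5 in G-MDSC, compared with 72.7 and 155.9 in neutrophils, with the lower G-MDSC array only just above the higher neutrophil array (0.67 ± 0.54, limma adjusted p = 0.441). Eno2, the neuronal enolase, was dim in all 4 arrays, at 10 and 44.9 against 45 and 13.8, and no fold is given. Erythroid markers summed to 2480 and 2378 against 2208 and 3208. Most of each sum was Tfrc, at 1667.1 and 1481.1 against 1651.3 and 1924.1.

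The last steps make pyruvate and lactate. Pkm, pyruvate kinase, had signals of 16387.1 and 16351.4 in the G-MDSC arrays and 17126.8 and 14582.7 in the neutrophil arrays. The G-MDSC arrays lay between the neutrophil arrays, with a difference of 0.05 ± 0.30 (limma adjusted p = 0.925). Ldha, the dehydrogenase subunit that favours lactate formation, had 16591.5 and 16538.2 against 18823.6 and 18779. The replicates of each group almost coincided, so the groups were apart although the difference was small, at -0.18 ± 0.30 (limma adjusted p = 0.711) and 0.45 after median scaling.

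Ldhb, the subunit associated with lactate use, had signals of 508.8 and 473.3 in the G-MDSC arrays and 548.3 and 1067.2 in the neutrophil arrays. Only neutrophils replicate 2 was well above the rest (-0.63 ± 0.38, limma adjusted p = 0.301), and the difference was -1.10 (limma adjusted p = 0.00545) without replicate 1 and -0.16 (0.823) without replicate 2. Its 3 other probe sets gave 0.45, 0.72 and 1.26, so the direction of Ldhb depended on the probe set. Ldha minus Ldhb differed by 0.44 with overlapping arrays (exact permutation p = 0.667), and by -0.77 with the median of the probe sets.

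Pyruvate dehydrogenase kinases restrain pyruvate dehydrogenase within the mitochondria. Pdk3 had signals of 1216.2 and 1193.7 in G-MDSC, compared with 466.3 and 798.3 in neutrophils. The G-MDSC arrays nearly coincided above both neutrophil arrays, with a difference of 0.96 ± 0.35 that did not pass (limma adjusted p = 0.0876) and was 1.34 (limma adjusted p = 6.226e-04) without neutrophils replicate 2 and 0.58 (0.129) without replicate 1. Pdk1, a well-known hypoxia target, had 609.5 and 591.5 against 859.1 and 590.7, with overlapping groups (-0.24 ± 0.34, limma adjusted p = 0.668, and 0.38 after median scaling). Pdk1 minus Pdk3 was -0.98 and -0.99 in G-MDSC, compared with 0.86 and -0.42 in neutrophils, a difference of -1.20 (exact permutation p = 0.333).

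Lactate leaves the cell through monocarboxylate transporters. Slc16a1 encodes MCT1, which carries lactate, pyruvate and ketone bodies either way. Its signal (probe set 1415802_at) was 290.3 and 124 in the G-MDSC arrays and 712.1 and 1317.8 in the neutrophil arrays. All G-MDSC values were lower, and the replicates of both groups were well apart. Slc16a1 fell by 2.25 ± 0.45 on the log2 scale, a 4.76-fold lower signal with a limma adjusted p of 0.00672. It was called with any 1 array left out (-2.82 to -1.69) and not after median scaling (-1.64, limma adjusted p = 0.0558). Macrophage markers were lower in the same arrays, and their part was not tested.

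Slc16a3 encodes MCT4, the exporter typical of strongly glycolytic cells. It had signals of 1988.7 and 1760.5 in the G-MDSC arrays and 5261.1 and 1650.7 in the neutrophil arrays. Neutrophils replicate 1 alone was high, and replicate 2 lay below both G-MDSC arrays. The difference of -0.65 ± 0.46 (limma adjusted p = 0.377) was -1.48 (limma adjusted p = 4.025e-05) without neutrophils replicate 2 and 0.18 (0.654) without replicate 1. The ratio of the transporters, Slc16a1 minus Slc16a3, was -2.71 and -3.67 in G-MDSC, compared with -2.86 and -0.32 in neutrophils, so the neutrophil arrays differed from each other by more than the groups did (difference -1.60, exact permutation p = 0.667).

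Of the pentose phosphate pathway 3 genes were tested, and all 3 had higher signals in both G-MDSC arrays without passing. Pgd, 6-phosphogluconate dehydrogenase, which makes the second NADPH of the oxidative arm, had signals of 20618.6 and 21312 in G-MDSC, compared with 15628.5 and 6445.6 in neutrophils. Neutrophils replicate 2 was far below the other 3 arrays. The difference was 1.06 ± 0.40 (limma adjusted p = 0.0975), 1.70 without neutrophils replicate 1 (limma adjusted p = 1.330e-06) and 0.42 (limma adjusted p = 0.358) without replicate 2. Its probe sets gave 1.01 to 1.19.

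Tkt, transketolase, which shuttles carbon units in the non-oxidative arm, had signals of 29830.1 and 29859.3 in the G-MDSC arrays and 21537.4 and 17708 in the neutrophil arrays. The G-MDSC arrays coincided above both neutrophil arrays, with a difference of 0.61 ± 0.30 (limma adjusted p = 0.209). A second Tkt probe set had 17001.4 and 12064 against 6259 and 3810.8, a difference of 1.55 (limma adjusted p = 0.0324 over all kept probe sets), and the other gave 1.45 (limma adjusted p = 0.0492). The chosen Tkt probe set thus gave a difference smaller by over 0.8 on the log2 scale than those 2. Taldo1, transaldolase, had 14981.4 and 15458 against 11569 and 9060.8 (0.57 ± 0.30, limma adjusted p = 0.236). Without neutrophils replicate 1 the chosen Tkt probe set gave 0.75 (limma adjusted p = 0.0461) and Taldo1 0.75 (0.0418), and without replicate 2 they gave 0.47 (0.290) and 0.40 (0.401). Without G-MDSC replicates 1 and 2 the limma adjusted p was 0.694 and 0.659 for Tkt and 0.692 and 0.690 for Taldo1. On the chosen probe sets, Tkt minus Taldo1 was 0.99 and 0.95 in the G-MDSC arrays and 0.90 and 0.97 in the neutrophil arrays. That is a difference of 0.04 with overlapping arrays (exact permutation p = 0.667). With the median of each gene's probe sets Tkt differed by 1.55 and Taldo1 by 0.57, so this small difference depended on the Tkt probe set. All 3 genes stayed above 0 under the quantile and median scalings. Of the granulocyte markers, the 7 of 15 genes named above were higher in the same arrays. The summed signals of that list are given above, and its part was not tested.

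**Figure D3:**
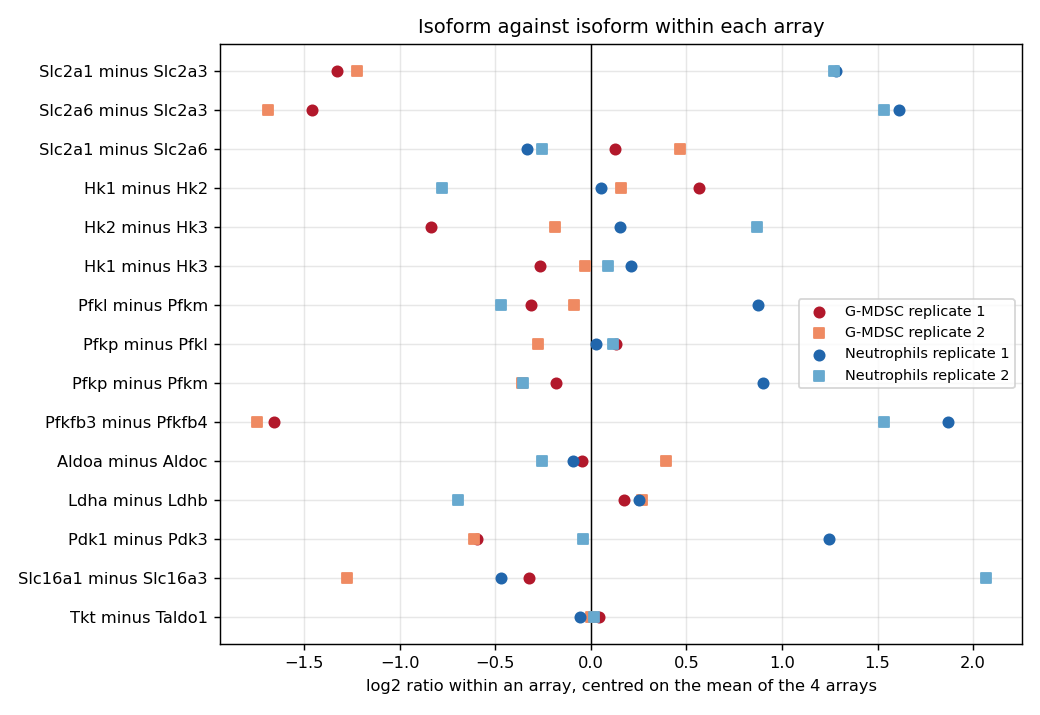
Log2 signal of one isoform minus that of another within each array, centred on the mean of the 4 arrays, for the 15 pairs compared, with colours and shapes for the 4 arrays. The groups lie on opposite sides for Pfkfb3 minus Pfkfb4 (difference -3.41), Slc2a6 minus Slc2a3 (-3.15) and Slc2a1 minus Slc2a3 (-2.55). Tkt minus Taldo1 (0.04) holds all 4 arrays together with the chosen Tkt probe set.

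The spread between replicates was unequal. The median gap between neutrophil replicates over the 27 genes was 0.54 on the log2 scale, beside 0.58 for all genes, and that between G-MDSC replicates was 0.17, beside 0.31. For 10 of the 27 genes the neutrophil replicates were farther apart than the group means, and for 2 the G-MDSC replicates were. Of the 15 genes with 2 or more kept probe sets, 12 had all of them on one side of 0, the exceptions being Pfkl, Aldoa and Ldhb. The chosen probe set of 6 tested genes, Slc2a3, Hk3, Aldoa, Bpgm, Pgd and Tkt, has a name ending in _s_at or _x_at, which marks probes that match several transcripts or resemble other sequences.

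**Figure D4:**
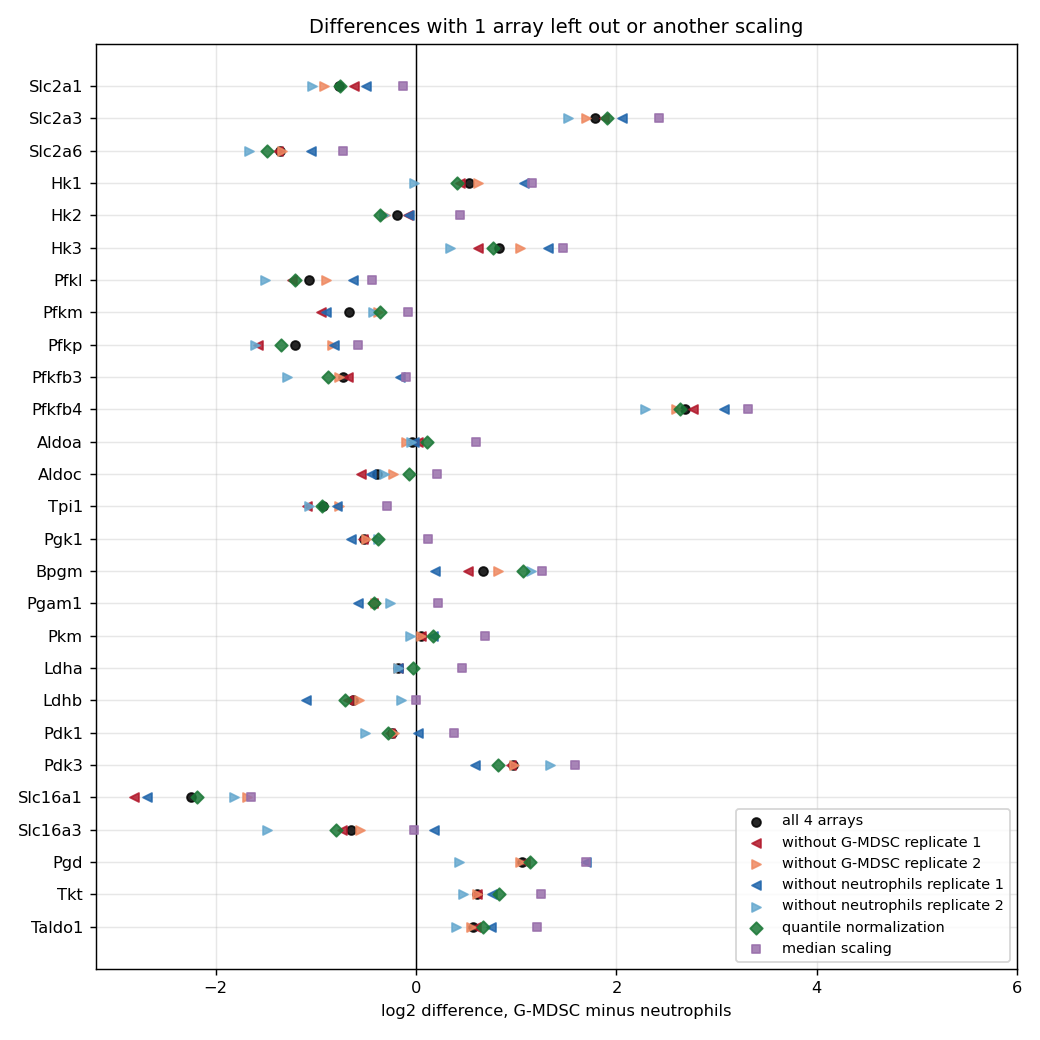
Log2 difference, G-MDSC minus neutrophils, of the 27 tested genes with all 4 arrays (black), with each array left out (triangles), after quantile normalization (green diamonds) and after median scaling (purple squares). Pfkfb4, Slc2a3, Slc2a6, Pfkp and Slc16a1 keep their side of 0 throughout, while Hk1, Pkm, Pdk1 and Slc16a3 cross it when a neutrophil array is left out.

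Genes beside the listed ones in the same pathways were counted from 5 further lists. Of 23 other glycolytic and gluconeogenic genes tested, 2 rose and 1 fell (all genes, 8.3% and 8.05%), with a median difference of 0.14. Without neutrophils replicate 1 the counts were 4 and 5, and without replicate 2 they were 4 and 1. Such counts are to be read against the shares of all genes called in the same fits, 18.4% higher and 26.4% lower without neutrophils replicate 1, and 13% and 11.1% without replicate 2. Adpgk, a glucokinase that spends ADP in place of ATP, had signals of 5348.3 and 3429.4 in G-MDSC, compared with 784.1 and 412.5 in neutrophils. The G-MDSC arrays were far the higher, and Adpgk rose by 2.88 ± 0.38, a 7.34-fold higher signal (limma adjusted p = 6.319e-04), with 2.10 on its second probe set. Txnip, which restrains glucose uptake, had 13788.8 and 14747.4 against 8846.6 and 2916.1 and rose by 1.49 ± 0.45 (limma adjusted p = 0.0429). That call was lost without neutrophils replicate 2 (0.69, limma adjusted p = 0.0881) and without G-MDSC replicate 2 (limma adjusted p = 0.0561), and the difference was 2.28 without neutrophils replicate 1. G6pc3, the glucose 6-phosphatase whose loss causes neutropenia, had 76.8 and 37.4 against 208.7 and 370.9 and fell by 2.07 ± 0.57 (limma adjusted p = 0.0302). The signal in G-MDSC replicate 2 lay below that array's 40th percentile of 52.6. G6pc3 was called in 11 of 17 alternatives. Among the others its limma adjusted p was 0.0868 with no filter, 0.0565 after quantile normalization and 0.0733 without trend. Its adjusted p in limma was 0.0998 and 0.274 without G-MDSC replicate 1 and 2. Emb, a partner protein of the monocarboxylate transporters, differed by 0.98 ± 0.31 (limma adjusted p = 0.0509), and Bsg, the usual partner, by -0.57 ± 0.29 (limma adjusted p = 0.225).

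At an unadjusted p under 0.05 in limma, 3 of 11 other pentose phosphate genes were higher and 0 lower (all genes, 29.6% in either direction). After adjustment 0 of the 11 genes were called (all genes, 8.3% higher and 8.05% lower), with a median of 0.11. Without neutrophils replicate 1 limma called 1 of them higher (all genes, 18.4%), and without replicate 2 it called 3 (all genes, 13%). The epimerase gene Rpe was nearest to the threshold, at 0.95 ± 0.31 (limma adjusted p = 0.0549). H6pd, the dehydrogenase of the endoplasmic reticulum, gave 0.90 and Rpia, the ribose phosphate isomerase, 0.76.

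Of 10 genes for pyruvate entry into mitochondria, Mpc1 rose and 0 fell in limma (all genes, 8.3% and 8.05%), with a median of -0.40. At an unadjusted p under 0.05 in limma, 1 was higher and 2 lower (all genes, 29.6% in either direction). Without neutrophils replicate 1 or 2, 1 gene fell (all genes, 26.4% and 11.1%), and without replicate 2, 2 rose (all genes, 13%). Mpc1, a subunit of the mitochondrial pyruvate carrier, had signals of 5966.6 and 8133.2 in the G-MDSC arrays and 2144.5 and 3087.3 in the neutrophil arrays. The groups did not overlap, and the difference was 1.43 ± 0.32 (limma adjusted p = 0.0119), with a limma adjusted p of 0.144 without G-MDSC replicate 2.

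Of 21 glycogen and hexose phosphate genes, 5 were higher and 1 lower at an unadjusted p under 0.05 in limma (all genes, 29.6% in either direction). After adjustment 3 rose and 0 fell (all genes, 8.3% and 8.05%), with a median of 0.47. The counts were 7 and 4 without neutrophils replicate 1 (all genes, 18.4% and 26.4%) and 1 and 0 without G-MDSC replicate 1 (all genes, 3.27% and 4.37%). Gyg, glycogenin, the primer of glycogen synthesis, had signals of 13248.8 and 16135.3 in the G-MDSC arrays and 5383.6 and 3890.6 in the neutrophil arrays. Both G-MDSC arrays were well above, by 1.67 ± 0.31 (limma adjusted p = 0.00452), with 1.95 on a second probe set. The others encode subunits of phosphorylase kinase, which starts glycogen breakdown. Phkb had 767.7 and 463.2 against 192.1 and 194.6 (1.55 ± 0.39, limma adjusted p = 0.0187), and Phkg2 had 1779.1 and 2208.9 against 937.4 and 583.9 (2.64-fold higher, limma adjusted p = 0.0167). Both groups of values were apart, but without G-MDSC replicate 1 the limma adjusted p was 0.456 for Phkb and 0.0555 for Phkg2, and without replicate 2 it was 0.0610 and 0.175.

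Of 8 genes of the glycerol phosphate and serine branches, 1 rose and 1 fell (all genes, 8.3% and 8.05%), with a median of -0.35. Leaving out neutrophils replicate 1, 2 rose and 3 fell (all genes, 18.4% and 26.4%), and without replicate 2, 2 rose and 2 fell (all genes, 13% and 11.1%). Gpd1l, which resembles glycerol 3-phosphate dehydrogenase, had signals of 2389 and 1799.3 in G-MDSC, compared with 760.7 and 438.8 in neutrophils. It rose by 1.81 ± 0.36 (limma adjusted p = 0.00587), with 0.73 on a second probe set and a limma adjusted p of 0.0541 without G-MDSC replicate 1. Psat1, the aminotransferase of serine synthesis, had 359.8 and 172.2 against 641.6 and 1143 and fell by 1.72 ± 0.43 (limma adjusted p = 0.0198), with -2.34 on a second probe set and a limma adjusted p of 0.233 without G-MDSC replicate 2.

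**Figure D5:**
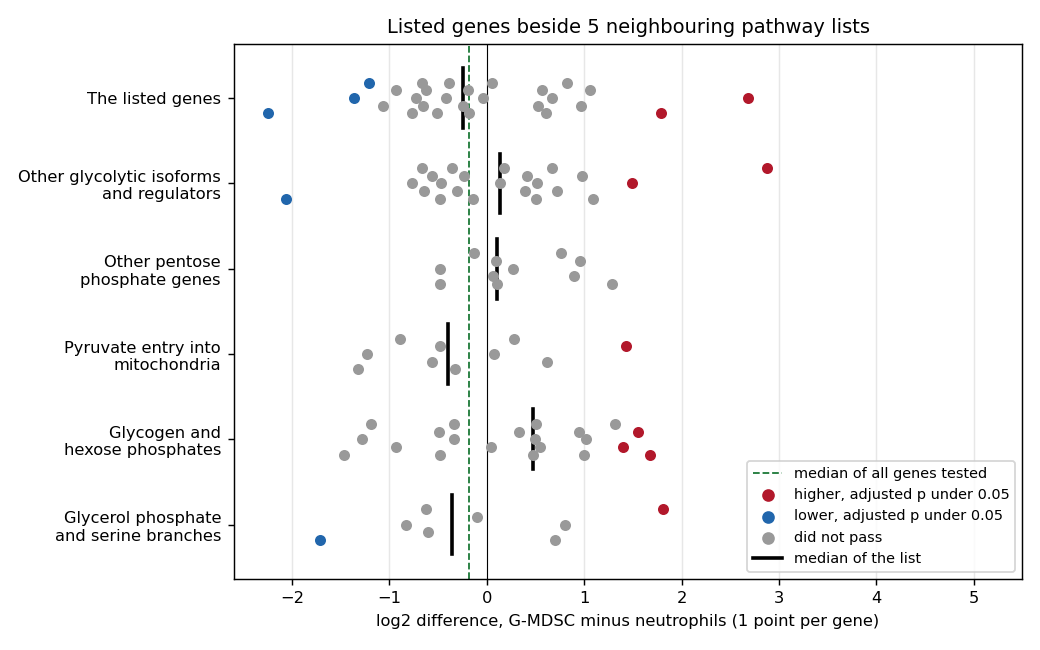
Log2 difference, G-MDSC minus neutrophils, with 1 point per tested gene for the listed genes and 5 neighbouring pathway lists, thick bars for the list median and a dashed line for the median of all genes tested (-0.18). Medians run from -0.40 for pyruvate entry to 0.47 for the glycogen list, and Adpgk at 2.88 is the highest point.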

How the data were processed

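Total RNA of 4 samples, 100 ng each, was hybridised to 1 array each. The intensity values deposited by the authors are linear signals, for which the submitters' processing notes name GCOS 1.4 and MAS5. Their mean, with 2% of probe sets trimmed at each end, is 500 in every array, so they were already scaled. Detection calls were left out. With 2 arrays per group, the number of arrays limits the precision. Of 45101 probe sets, 64 are controls, 34945 have 1 gene symbol in the platform annotation, 932 several and 9160 none, and the single symbols name 18193 genes.

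Signals were used as log2(signal + 16), a scale that understates changes of dim genes. Probe sets above the 40th percentile of their array in at least 2 of 4 arrays were kept (28754), and the brightest kept probe set on average stood for each of 13139 genes. A gene at or below that percentile in both arrays of a group is called dim there. Differences were fitted with limma 3.58.1 in R 4.3.3 (lmFit, eBayes with trend), two-sided, with Benjamini-Hochberg adjustment over all genes and a threshold of 0.05. In a second limma fit, all 28754 kept probe sets were tested and 2309 passed. Isoform pairs were compared within arrays by an exact two-sided permutation test. The functions were tested on simulated data. Figures used Python 3.11.15 with matplotlib 3.10.9.

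All 32 listed genes were named, with up to 3 called genes per direction of each further list. The uncalled genes Rpe, H6pd, Rpia, Emb and Bsg were chosen after their values were seen. Pgm2 (limma adjusted p = 0.05004), Pygl (0.0562) and Pdp2 (0.0584) lay nearer to the threshold than H6pd, Rpia and Bsg. The listed genes, further lists and tests were chosen with earlier results of these data known. Alternatives were pseudocounts of 1 and 64, other filters, quantile and median scaling, other variance models, the median of a gene's probe sets, a replicate block and leaving out each array. A floor for low signals and the Gapdh control probe sets among the genes were added after seeing the data.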

Additional observations from a re-analysis of the deposited data

How the results depend on the processing

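Of the 5 called genes, Pfkfb4 kept its call in 16 of 17 alternatives, Slc2a3 in 15, Slc16a1 in 14, Slc2a6 in 12 and Pfkp in 9, and each kept its direction in all 17. The count of listed genes that fell, 3 in the chosen analysis, was 5 with quantile normalization, 0 with median scaling, 0 with limma's eBayes without trend, 0 without moderation (7, 6 and 6 listed genes of either direction at an unadjusted p under 0.05) and 5 with low signals raised to a floor, which was chosen after seeing the data. The count that rose, 2, was 1 without trend and 0 without moderation. Over all genes the 1058 lower calls became 395 with median scaling and 331 without trend, and the 1091 higher calls became 148 without trend. Limma without moderation called 0 higher and 0 lower, with 2379 genes, 6 of them listed, at an unadjusted p under 0.05. With 1 array left out, which leaves a group with a single array, 429 to 2419 genes were higher and 561 to 3472 lower, and 2 to 7 listed genes rose and 1 to 8 fell.

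Signs turned for Aldoa with quantile normalization (0.11), and with median scaling for Hk2 (0.44), Aldoa (0.60), Aldoc (0.21), Pgk1 (0.12), Pgam1 (0.22), Ldha (0.45) and Pdk1 (0.38). Median scaling multiplies each array by a single factor, and it also moved the median of all genes upward, from -0.18 to 0.42. With the median of the probe sets signs turned for Aldoa (0.052), Ldhb (0.59) and Ldha minus Ldhb (-0.77). With 1 array left out, Aldoa ran from -0.096 without G-MDSC replicate 2 to 0.018 without replicate 1, and Pfkp minus Pfkl from -0.35 without G-MDSC replicate 1 to 0.061 without replicate 2. The others that turned ran from the value without neutrophils replicate 2 to that without replicate 1: Hk1 from -0.018 to 1.07, Pkm from -0.065 to 0.17, Pdk1 from -0.51 to 0.023, Slc16a3 from -1.48 to 0.18, Pfkl minus Pfkm from -1.07 to 0.27, Pfkp minus Pfkm from -1.17 to 0.084 and Ldha minus Ldhb from -0.029 to 0.92. The cause was not tested.

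The labels do not say that replicate numbers pair the samples, and deviations of same-numbered arrays correlated at 0.24. With the replicate block, 1699 genes were higher and 1607 lower, and 5 listed genes rose and 6 fell, adding Slc2a1, Hk3, Pfkl, Tpi1, Pdk3 and Pgd.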
